A study of Mus musculus with 9 samples.

Results

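The genes described here encode the fast and slow forms of the contractile apparatus of skeletal muscle, as measured in the mouse mammary gland at 4 stages of its development. The set holds 10 genes of the 8251 that the array names. 6 of them are fast or fast-fibre proteins (Tnnc2, Tnni2, Tnnt3, Myl1, Atp2a1 and Casq1), 3 are the slow troponins (Tnnc1, Tnni1 and Tnnt1), and Eno3 is the muscle form of enolase. Members were taken by gene symbol, as every probe set to which the platform annotation gives only that symbol. All 10 genes were present through 13 probe sets, and 12 of these passed the filter on low signal.

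RNA of the whole inguinal (No 4) gland of wild type C57BL/6J females was hybridized to 9 MG-U74Av2 arrays, an Affymetrix chip that measures each transcript with a set of short probes. The stages were puberty (virgin mice of 6 weeks, 3 arrays), day 14 of pregnancy (2 arrays), day 10 of lactation (2 arrays) and day 4 of involution, the regression of the gland after weaning (2 arrays). Each array held the gland of another animal by the study's account, and no treatment or transgene was involved. The gland was taken as a whole fat pad, so each sample is a mixture of epithelium, fat, lymph node, vessels and other tissue of the pad.

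Skeletal muscle contracts when calcium binds troponin C, which relieves the block that troponin I places on actin and which troponin T passes along tropomyosin. Fast and slow fibres carry different genes for each of these subunits, and also for myosin light chains, for the calcium pump of the sarcoplasmic reticulum and for its calcium store. The contractile cells of the mammary gland itself, the myoepithelium, use the smooth muscle set of proteins to eject milk.

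Promoters of 8 of the 10 genes could be taken from RefSeq (GRCm38.p6), as the 250 bases before an annotated start. For Atp2a1, Myl1, Eno3 and Tnni1 that start lies inside the gene span given below, not at its end. They are shown for both troponin C genes, the fast calcium pump and the slow troponin T, so that both fibre types can be compared. The capitals mark matches on either strand to the E-box (CANNTG), which is bound by the myogenic factors of the MyoD family, and to the MCAT element (CATTCC), and no match overlapped another. The Tnnc2 window lies at chr2:164779735-164779984 (minus strand), the Atp2a1 window at chr7:126463074-126463323 (minus strand), the Tnnc1 window at chr14:31208062-31208311 (plus strand) and the Tnnt1 window at chr7:4515976-4516225 (minus strand).
Tnnc2: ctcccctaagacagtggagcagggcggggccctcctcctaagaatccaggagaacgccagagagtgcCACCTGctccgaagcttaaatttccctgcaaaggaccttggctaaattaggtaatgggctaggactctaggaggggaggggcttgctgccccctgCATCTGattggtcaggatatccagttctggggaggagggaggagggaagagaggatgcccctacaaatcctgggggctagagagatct
Atp2a1: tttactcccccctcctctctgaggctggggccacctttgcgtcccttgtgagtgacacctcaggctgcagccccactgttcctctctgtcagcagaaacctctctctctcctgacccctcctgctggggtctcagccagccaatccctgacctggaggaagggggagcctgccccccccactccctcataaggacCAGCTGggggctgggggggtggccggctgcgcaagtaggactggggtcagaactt
Tnnc1: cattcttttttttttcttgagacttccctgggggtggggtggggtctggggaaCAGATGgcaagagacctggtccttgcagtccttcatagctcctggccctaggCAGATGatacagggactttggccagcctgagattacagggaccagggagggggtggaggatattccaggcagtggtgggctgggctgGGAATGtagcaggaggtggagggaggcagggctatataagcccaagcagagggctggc
Tnnt1: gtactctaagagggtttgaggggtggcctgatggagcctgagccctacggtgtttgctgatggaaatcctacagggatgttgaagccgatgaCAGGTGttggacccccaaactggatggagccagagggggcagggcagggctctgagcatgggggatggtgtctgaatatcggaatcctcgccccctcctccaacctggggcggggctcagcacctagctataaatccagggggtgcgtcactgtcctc
An E-box match was present in all 8 members with a promoter, against 66.2% of all 32851 mouse promoters of that length. MCAT was found in 3 of the 8, Myl1, Eno3 and Tnnc1, against 12.6% of all promoters. TATAAA was matched on either strand in 2, against 12.4% of all promoters, and the MEF2 motif in 0, against 2.9%. The TATAAA match of Tnnt1 began at −30 from the start. That of Myl1 was on the opposite strand (TTTATA) and began at −95. These are matches of letters only.

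The arrays were comparable in overall signal. Their medians were 48.1 to 53.8 before scaling, and the scaling to a common median used factors of 0.948 to 1.06. Log2 signals correlated at r = 0.947 to 0.975 between arrays of the same stage and at 0.724 to 0.935 between arrays of different stages. Signals below are scaled signals, and values under 20, the floor, were set to 20 before log2 was taken and have no order among themselves. Between 13.2% and 15.5% of the 9783 tested probe sets lay at the floor on each array. The number of arrays per stage limits the precision of every value.

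All 10 genes had their highest signals at puberty. limma's moderated F test over the 4 stages called 9 of the 10 at an adjusted p below 0.05, and 51.6% of all tested probe sets passed the same test. In pregnancy against puberty 9 members were lower, where 5.22% of all probe sets were called lower, and in lactation against puberty 9 were lower, where 21.8% were. In involution against puberty 8 members were lower, where 3.1% of probe sets were. No member was called higher in pregnancy, lactation or involution, where 6.2%, 26.1% and 4.39% of probe sets were. The involution count was 5 without involution replicate 1 and 5 without involution replicate 2. It was also 5, of 8 members tested, when probe sets whose Affymetrix suffix marks possible matches to several transcripts were set aside, an alternative chosen after seeing the data. Tnni2, Tnnc1 and Tnnt1 passed the filter on low signal only through puberty, the stage where they were high, so their calls could go only that way. Of the 7 other members, 6 were lower in pregnancy, 6 in lactation and 6 in involution than at puberty. With no filter the counts over the 10 members were 7, 8 and 7. With genes at the floor taken at their bound, the median log2 change of the members was −3.76 in pregnancy, −3.96 in lactation and −3.39 in involution, against 0.00, 0.09 and 0.05 over all probe sets tested. In all 3 comparisons the floored signals of the later stage lay entirely below those of puberty for 10 of the 10 genes. The share of all probe sets separated in this way was not counted, so this only describes the members. For Tnni2, Tnnc1 and Tnnt1 a separation could go only that way. In bulk tissue, fewer muscle cells and less RNA per muscle cell cannot be told apart. The study had itself singled out Myl1, Casq1 and Eno3 as puberty genes on these arrays, so their direction here is not independent evidence.

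**Figure D1:**
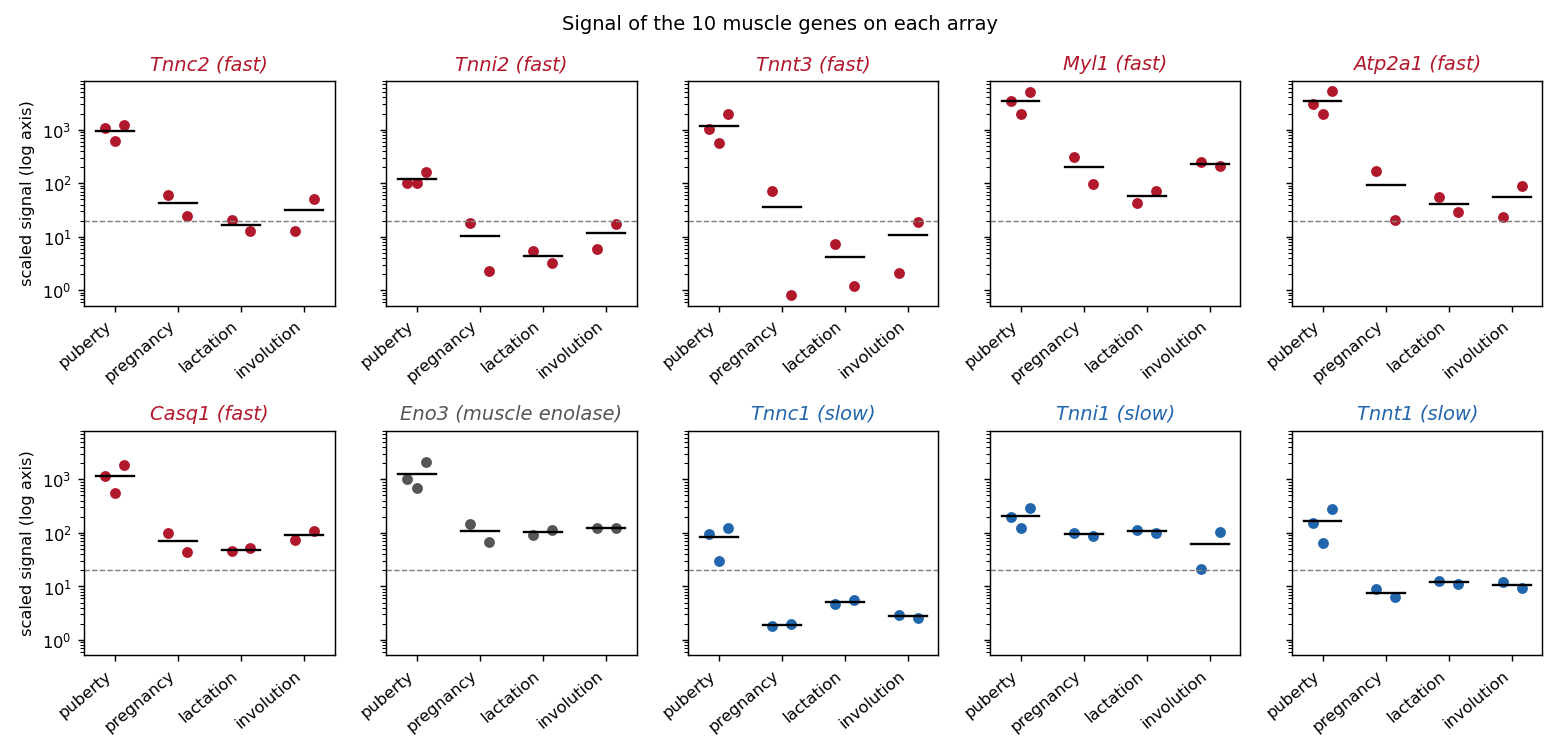
Scaled signal (log axis) of each of the 10 genes on each of the 9 arrays by stage, with fast genes in red, slow genes in blue and Eno3 in grey. Each point is an array and each bar the mean of a stage. Values under the dashed line, at the floor of 20, have no order. In every panel the 3 puberty arrays lie above all arrays of the later stages.

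Fast troponin C, Tnnc2, the calcium sensor of fast fibres, lies at chr2:164777161-164779734 (GRCm38.p6), and its promoter window held 2 E-box matches. Its signals were 1072.9, 608.2 and 1203.4 at puberty, 61.3 and 24.2 in pregnancy, 20.6 and 12.7 in lactation and 12.7 and 51.3 in involution. The stage means were 962 ± 313 (SD, n = 3), 42.8 ± 26.2, 16.7 ± 5.59 and 32.0 ± 27.3 (SD, n = 2 each). The puberty arrays were far above every other array, and the involution arrays overlapped those of pregnancy and of lactation. The log2 change against puberty was −4.58 in pregnancy (limma, adjusted p = 0.00128), −5.51 in lactation (adjusted p = 6.19e-05) and −4.85 in involution (adjusted p = 0.000986). These changes correspond to signals 24.0-fold, 45.5-fold and 28.8-fold lower than at puberty, where 1 lactation array and 1 involution array entered at the floor, so that the lactation and involution values are partly bounds. The probe set behind them is of the type that Affymetrix marks as matching a gene family, and the other probe set of Tnnc2 lay at 1.0 to 6.4 on all 9 arrays, under the floor, and was not tested.

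Fast troponin I, Tnni2, the inhibitory subunit, lies at chr7:142441816-142444410. It gave 102.4, 99.2 and 160.9 at puberty, 18.3 and 2.3 in pregnancy, 5.5 and 3.3 in lactation and 5.8 and 17.3 in involution. All 6 later arrays were at the floor, and its signal was at least 5.89-fold lower in pregnancy, lactation and involution than at puberty (adjusted p = 0.000686, 6.46e-05 and 0.000572, limma). Fast troponin T, Tnnt3, which anchors the complex on tropomyosin, lies on the same chromosome at chr7:142498771-142516213. Its signals were 1023.1, 564.6 and 1938.9 at puberty, 72.0 and 0.8 in pregnancy, 7.3 and 1.2 in lactation and 2.1 and 19.2 in involution. Only the first pregnancy array stood above the floor after puberty. The change in pregnancy against puberty was −4.78 on the log2 scale with 1 of the 2 pregnancy arrays set to the floor (adjusted p = 0.00221), and in lactation and involution Tnnt3 was at least 51.9-fold lower than at puberty (adjusted p = 0.000109 and 0.000922). The calls of Tnnc2, Tnni2 and Tnnt3 against puberty held under every alternative run on that probe set and without each array in turn.

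Myl1, an alkali light chain of fast myosin (chr1:66924295-66947932), gave 3411.5, 1953.7 and 5082.3 at puberty, 313.1 and 95.6 in pregnancy, 42.9 and 70.3 in lactation and 252.9 and 208.0 in involution. It did not reach the floor on any array. Its log2 change against puberty was −4.23 in pregnancy (limma, adjusted p = 0.00224), −5.88 in lactation (adjusted p = 5.16e-05) and −3.82 in involution (adjusted p = 0.0039). Without the second involution array the last of these had an adjusted p of 0.0704.

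Myl1 was also the only member called between the later stages. It was lower in lactation than in pregnancy by a log2 change of −1.66 (limma, adjusted p = 0.0466), and higher in involution than in lactation by 2.06 (adjusted p = 0.0181), a 4.18-fold difference. Thus 1 member was lower in lactation against pregnancy, where 19.7% of probe sets were called lower, and 1 was higher in involution against lactation, where 22.1% were called higher. Neither call was firm. The first was lost on leaving out puberty replicate 1, pregnancy replicate 1, either lactation array or either involution array, and the second on leaving out either lactation array or involution replicate 1. In involution against pregnancy limma called 0 of 10 members and 7.12% of all probe sets, and 0 members had an unadjusted p below 0.05.

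Atp2a1, the SERCA1 pump that returns calcium to the sarcoplasmic reticulum of fast fibres, lies at chr7:126445858-126463103, with 1 E-box match in its promoter window. Its signals were 3041.5, 1976.8 and 5217.4 at puberty, 167.5 and 20.8 in pregnancy, 54.4 and 28.6 in lactation and 23.4 and 87.5 in involution. Puberty did not overlap any later stage. The log2 change was −5.74 in pregnancy (limma, adjusted p = 0.00508), −6.32 in lactation (adjusted p = 0.000495) and −6.12 in involution (adjusted p = 0.00461). The second Atp2a1 probe set gave −5.47, −6.23 and −5.82, and all 3 changes were called. For the first, the pregnancy call was lost without pregnancy replicate 2 (adjusted p = 0.0555), and the involution call without involution replicate 1 (adjusted p = 0.0561) or lactation replicate 2 (adjusted p = 0.0503). Both probe sets carry an Affymetrix suffix for probes that may match more than a single transcript.

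Casq1, calsequestrin, the protein that stores calcium in the sarcoplasmic reticulum (chr1:172209894-172219895), gave 1141.9, 557.2 and 1836 at puberty, 99.4 and 43.1 in pregnancy, 45.8 and 52.0 in lactation and 73.7 and 109.6 in involution. Its log2 change was −4.01 in pregnancy (limma, adjusted p = 0.00227), −4.43 in lactation (adjusted p = 0.000174) and −3.55 in involution (adjusted p = 0.00425). The involution call was lost without either involution array (adjusted p = 0.0533 without replicate 1 and 0.0513 without replicate 2). Eno3, the enolase of muscle glycolysis (chr11:70653125-70662513), gave 1017.2, 693.1 and 2127.5 at puberty, 144.2 and 69.1 in pregnancy, 92.6 and 113.7 in lactation and 122.7 and 122.3 in involution. Its log2 change was −3.52, −3.48 and −3.22 in pregnancy, lactation and involution (limma, adjusted p = 0.00245, 0.000352 and 0.0042). The last had an adjusted p of 0.067 without involution replicate 2. Neither gene came to the floor after puberty.

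The slow troponins were less uniform. Tnnc1, the troponin C of slow fibres and of the heart, lies at chr14:31208312-31211729 (GRCm38.p6), and its promoter window held 2 E-box matches and 1 MCAT match. Its signal did not exceed 5.6 on the 6 later arrays, against 96.0, 30.2 and 123.4 at puberty. Its signal was at least 3.55-fold lower in pregnancy and lactation than at puberty (limma, adjusted p = 0.0493 and 0.0153), while in involution against puberty the same bound had an adjusted p of 0.0629 and was not called. The pregnancy call was lost without each array but puberty replicate 2, and with 75th percentile scaling, a floor of 50, no filter, no trend or the replicate number as a block (adjusted p = 0.0543 to 0.323 over these 5). The lactation call was lost without either lactation array, with a floor of 50 and with no filter. The involution change was called without puberty replicate 2 (adjusted p = 0.000898), with no floor (0.00269) and with an added constant of 16 (0.00522). The F test of Tnnc1 (adjusted p = 0.0217) was kept in only 1 of 9 fits with an array left out, that without puberty replicate 2, and gave 0.0675 to 0.117 in the others. It was also lost with a floor of 50 (adjusted p = 0.295), no filter, the block and a plain analysis of variance. That array, at 30.2, was the puberty array nearest the floor.

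Slow troponin T, Tnnt1 (chr7:4504569-4515975), with 1 E-box match in its promoter window, gave no value above 12.8 on the 6 later arrays, against 150.0, 64.3 and 283.3 at puberty. It was at least 6.99-fold lower in pregnancy, lactation and involution than at puberty (limma, adjusted p = 0.00913, 0.00193 and 0.0127). With a floor of 50 in place of 20 its F test no longer passed (adjusted p = 0.166), and no contrast with puberty was called. The pregnancy call was lost without either pregnancy array or either lactation array, and the involution call without either lactation array or either involution array. Both calls were also lost with no filter (limma, adjusted p = 0.0522 in pregnancy and 0.0664 in involution). The other probe set of Tnnt1 did not follow it. That set gave 57.9 to 77.6 at puberty, 39.0 to 43.1 in pregnancy, 39.4 to 80.7 in lactation and 39.6 to 55.8 in involution. Its F test had an adjusted p of 0.243 (limma). The called probe set carries an Affymetrix suffix for probes that may match more than a single transcript, and the other has no suffix.

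Slow troponin I, Tnni1 (chr1:135783033-135810989), was the only member that did not pass the F test (limma, adjusted p = 0.0869). Its signals were 200.2, 121.9 and 289.1 at puberty, 99.1 and 87.8 in pregnancy, 114.3 and 100.7 in lactation and 21.6 and 104.7 in involution. No later array reached the puberty arrays, and 5 of the 6 later arrays held a signal of 87.8 to 114.3 with 1 involution array near the floor. The log2 change was −1.04 in pregnancy (adjusted p = 0.336, 95% interval −2.39 to 0.32), −0.84 in lactation (adjusted p = 0.272, −2.19 to 0.52) and −2.01 in involution (adjusted p = 0.0811, −3.37 to −0.66). The first and second of these intervals span 0 and also include changes below −2. Without involution replicate 2 the F test passed (adjusted p = 0.00835) and the involution change was −3.15 (adjusted p = 0.0255), a value that rests on the array at 21.6. The F test also passed with an added constant of 16 in place of the floor (adjusted p = 0.0445) and with a filter of 100 (adjusted p = 0.0499).

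**Figure D2:**
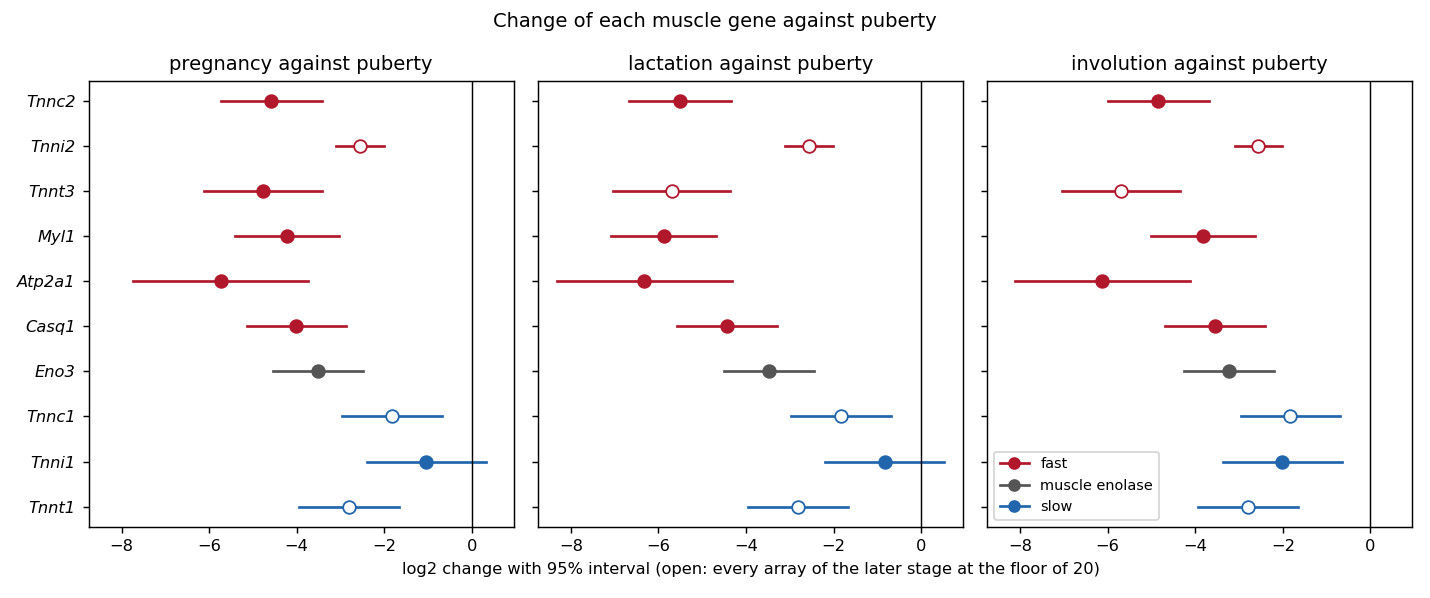
Log2 change of each gene in pregnancy, lactation and involution against puberty, with 95% intervals, in red for fast genes, grey for Eno3 and blue for slow genes. Open circles mark genes with every array of the later stage at the floor, where the change is a bound. Fast genes and Eno3 lie between −6.32 and −2.56, slow troponins between −2.81 and −0.84. The values of Tnni2, Tnnc1 and Tnnt1 are bounds in every comparison, so these ranges do not show which class changed more.

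Whether fast and slow isoforms differed was tested on the within-array difference of each troponin pair, fast minus slow, on the log2 scale. This measures unequal change and not relative abundance. For troponin C the difference was 3.48, 4.33 and 3.29 at puberty, 1.62 and 0.27 in pregnancy, 0.04 and 0.00 in lactation and 0.00 and 1.36 in involution. It differed between the 4 stages (exact permutation test of the sum of squares between stages over 7560 assignments of the 9 arrays, p = 0.00556, 0.0167 after Benjamini-Hochberg over 3 pairs). The puberty arrays lay above all others, by 3.15 in the mean, a contrast that was not itself tested. The smallest p that this design allows is 0.000794. Since Tnnc1 was at the floor on every later array, the difference there is bounded by the floor. Without a floor the puberty mean was 0.62 above the others (exact p over the stages = 0.144). With the mean of all probe sets of each gene in place of the brightest, which for Tnnc2 is of the family type, it was 0.66 above them (exact p = 0.398). The call was therefore lost under both.

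For troponin T the difference was 2.77, 3.13 and 2.77 at puberty, 1.85 and 0.00 in pregnancy and 0.00 on all arrays of lactation and involution. The differences of 0.00 are set by the floor, where Tnnt1 lay on all 6 later arrays and Tnnt3 on 5 of them. The test over the 4 stages did not pass over the 3 pairs (exact permutation p = 0.0357, 0.0536 after adjustment), with the puberty mean 2.59 above the others, and without a floor the p was 0.233. For troponin I the difference was −0.97, −0.30 and −0.85 at puberty, −2.31 and −2.13 in pregnancy, −2.52 and −2.33 in lactation and −0.11 and −2.39 in involution. Tnni2 was at the floor on all 6 later arrays, so these differences are bounded as well. The test over the 4 stages gave an exact permutation p of 0.18 (0.18 after adjustment), and the first involution array, at −0.11, lay above the puberty arrays. Without a floor the exact p was 0.0302. Leaving out the first involution array gave an exact p of 0.0405 and leaving out the second 0.00595, each with 1 involution array left. Without any one of the puberty arrays the exact p of troponin C was 0.0571. That of troponin T was 0.0536 to 0.143 without any single array other than pregnancy replicate 2, and 0.00357 without that array.

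**Figure D3:**
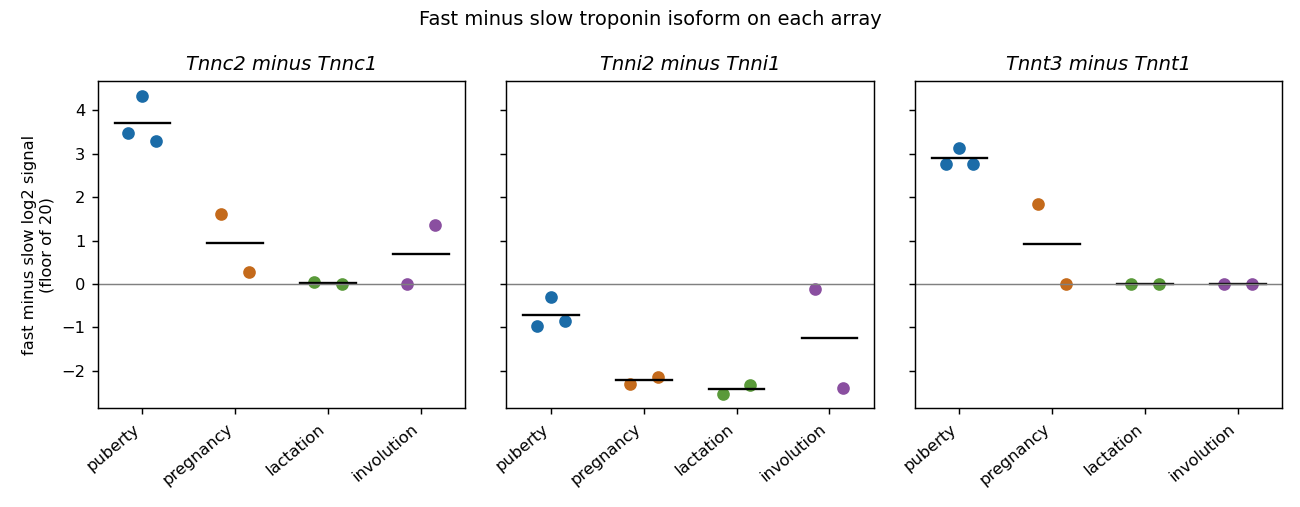
Fast minus slow log2 signal (floor of 20) of the troponin C, I and T pairs on each array by stage, with bars at the stage means. Tnnc2 minus Tnnc1 is at 3.29 to 4.33 at puberty and at most 1.62 later, while for Tnni2 minus Tnni1 an involution array at −0.11 lies above all puberty arrays.

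The puberty arrays differed among themselves, and in the same order for every gene. In 10 of 10 members puberty replicate 2 was the lowest and replicate 3 the highest. The 10 genes share these arrays and are not 10 separate observations. The share of all probe sets with this order was not counted. Replicate 3 was 1.62 to 3.43 times replicate 2 for the fast genes, 3.07 times for Eno3, and 4.09, 2.37 and 4.41 times for Tnnc1, Tnni1 and Tnnt1. The summed signal of the 6 fast genes was 9793.3, 5759.8 and 15438.9 on the puberty arrays, and that of the 3 slow genes 446.1, 216.4 and 695.8. In pregnancy replicate 1 was the higher array for 7 members and both were at the floor for 3, with fast sums of 731.6 and 186.7. In lactation the fast sums were 176.4 and 168.1 and in involution 370.7 and 492.9.

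**Figure D4:**
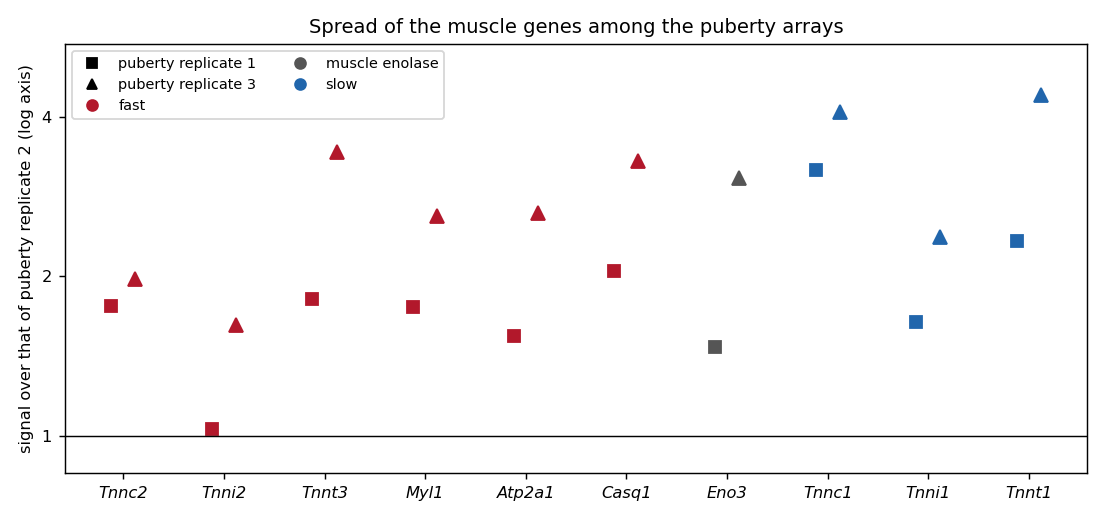
Signal of each gene on puberty replicates 1 (squares) and 3 (triangles) over that on puberty replicate 2 (log axis), coloured by class. All points lie above 1, and the triangles lie above the squares for every gene.

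Across the 9 arrays the members followed each other closely. As a description, and with all points sharing the gap between puberty and the rest, the log2 signal of each fast gene correlated with the mean of the other fast genes at r = 0.96 to 0.993, Eno3 at 0.985, Tnnt1 at 0.954, Tnnc1 at 0.9 and Tnni1 at 0.672. Of 7080 other genes, the 6 with the profile most like the fast mean were Actn3 (r = 0.994), the fast alpha-actinin of the Z-disc, Myh4 (0.993) and Myh1 (0.992), fast myosin heavy chains, Ckm (0.987), muscle creatine kinase, Ak1 (0.985), an adenylate kinase, and Pkia (0.983), an inhibitor of protein kinase A. The 6 most like the slow mean were Sh3bgr (0.994), Myom1 (0.976), which links thick filaments at the M-band, Cacng1 (0.976), a subunit of the muscle calcium channel, Mlf1 (0.975), Myl2 (0.975), the regulatory light chain of slow and cardiac myosin, and Phkg1 (0.971), a catalytic subunit of phosphorylase kinase.

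Other genes of the fibre types were taken from lists chosen with earlier results of these data known. The shares of all probe sets called lower than at puberty, 5.22% in pregnancy, 21.8% in lactation and 3.1% in involution, and those called higher, 6.2%, 26.1% and 4.39%, stand beside the counts of every list. Pgam2 (fast), Myl2 and Myl3 (slow) and Mef2c (regulator) had means of 20 or less in every later stage. So did Myom1, Myom2, Csrp3, Ckmt2, Cox7a1 and Pygm (pan-fibre). All of these genes passed the filter only through puberty, so their calls could go only lower, and the counts include them. Of 10 other fast fibre genes tested, 9 were lower in pregnancy, 8 in lactation and 8 in involution than at puberty. Myh1 gave 53.4 or less on the later arrays, against 753.4, 376.3 and 917.1 at puberty. Its log2 change in pregnancy was −4.29 (limma, adjusted p = 0.00117), partly a bound with the second pregnancy array at the floor. Actn3 gave 39.3 or less on the later arrays, against 927.9, 546.3 and 2239.5 at puberty. Pvalb, parvalbumin, the calcium buffer of fast fibres, had log2 changes of −2.99, −2.20 and −2.99 in pregnancy, lactation and involution, and Pgam2, the muscle phosphoglycerate mutase, came to the floor on all 6 later arrays. Tpm1 was the exception, with log2 changes against puberty of 1.25, 0.42 and 0.79 in pregnancy, lactation and involution (limma, adjusted p = 0.0012, 0.0318 and 0.0107). This tropomyosin gene is shared with smooth muscle, and it is named here after its values were seen.

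Of 9 other slow fibre genes tested, 3 were lower in pregnancy, 3 in lactation and 3 in involution than at puberty. Myl2 lay at the floor on all later arrays, against 228.4, 54.0 and 335.0 at puberty, and was called lower in each stage (limma, adjusted p = 0.0179, 0.00455 and 0.0252). Myh7, the slow myosin heavy chain, was called lower in pregnancy and lactation. In involution it gave 10.0 and 59.1, against 164.4, 75.4 and 325.9 at puberty, and was not called (limma, adjusted p = 0.0641). The Myh7 probe set is of the type that Affymetrix marks as matching a gene family. Mb, myoglobin, had log2 changes of −2.07, −3.43 and −3.20 in pregnancy, lactation and involution. Both lactation arrays and the second involution array of Mb were at the floor. The lactation value is thus a bound and the involution value partly a bound. Fabp3 is a fatty acid carrier of slow muscle and heart that the lactating gland also makes. It was higher than at puberty by 2.59 in pregnancy and 7.72 in lactation on the log2 scale. In involution it was lower by a log2 change of −1.61 (limma, adjusted p = 0.00974), a bound with both involution arrays at the floor. Fabp3 gave most of the summed signal of this list in lactation, 11727.3 to 15102.1, against 609.2 to 1871.8 at puberty.

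Genes common to all skeletal fibres were mostly lower than at puberty. Of 19 tested, 16 were lower in pregnancy, 16 in lactation and 15 in involution than at puberty, and their summed signal was 6204.5 to 14790.4 at puberty, 535.2 to 1218.6 in pregnancy, 670.5 to 738.0 in lactation and 702.3 to 791.8 in involution. Pygm, muscle glycogen phosphorylase, had log2 changes of −5.04, −4.96 and −5.13 in pregnancy, lactation and involution. It is among the genes that passed the filter only through puberty. Cox6a2, a muscle subunit of cytochrome oxidase, had changes of −4.53, −4.88 and −4.45. Both involution arrays of Pygm and both lactation arrays of Cox6a2 were at the floor, so −5.13 and −4.88 are bounds. The other values of these genes are partly bounds, with an array at the floor in each. Ckm and Nrap, a protein of the myotendinous junction, were lower in each later stage as well. Of 11 myogenic regulators and developmental isoforms 1 was lower in pregnancy, 3 were lower and 2 higher in lactation, and 2 were lower in involution, shares that in lactation lie near those of all probe sets. Mef2c, a transcription factor of muscle and other tissues, was at the floor on the 6 later arrays, against 111.6, 41.3 and 89.4 at puberty. Cardiac isoforms gave 0 lower calls of 4 tested in any stage, and 2 were higher in lactation than at puberty.

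Markers of the other tissues of the gland moved in both directions, and in lactation, where 21.8% of all probe sets were called lower and 26.1% higher than at puberty, calls were frequent throughout. Of 8 smooth muscle and myoepithelial genes tested, 7 were higher in pregnancy, 6 in lactation and 3 in involution than at puberty, with 1 lower in involution. Of 8 luminal epithelial genes 5, 5 and 4 were higher, with 2 lower in lactation, and their summed signal was 3815.4 to 9697.9 in the later stages, against 1982.6 to 3375.8 at puberty. Of 6 white adipocyte genes 1 was lower in pregnancy, 4 were lower in lactation and 1 was higher in involution. Of 3 brown adipocyte genes 1 was lower in pregnancy and 1 higher in lactation. Of 6 macrophage genes 4 were lower and 1 higher in lactation and 4 higher in involution. Of 4 B cell genes 2 were lower in pregnancy and 4 in lactation, and of 5 endothelial genes 3 were lower and 1 higher in lactation. In no stage did any of the 8 luminal or 6 white adipocyte genes lie at the floor on all arrays. The part of dissection, of animal and of stage in the muscle signal was not tested.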

How the data were processed

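The authors deposited unlogged intensity values from MAS5 (named in the submitters' processing notes, with no version), which are not centred per gene. Of 12488 probe sets, 66 controls were left out. After scaling of the arrays to a common median, a floor of 20 was applied before the log2 step. Tests covered 9783 probe sets, those whose mean passed 20 in at least 1 stage. The platform annotation gave 10833 probe sets 1 symbol, 396 several and 1193 none here. The brightest probe set stood for its gene.

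limma 3.58.1 in R 4.3.3 (lmFit, eBayes with a trend) was used for 6 contrasts, later minus earlier stage, and for an F test of all 4 stages, with 9 arrays in 1 fit. The Benjamini-Hochberg adjustment ran over all 9783 probe sets, with a threshold of 0.05. Troponin pairs were compared by an exact permutation test of the sum of squares between stages, two-sided by construction. Changes with all later arrays at the floor are bounds.

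The named genes are the members and the 6 genes most like the fast and the slow mean profile. They also include up to 4 genes per list with the smallest F test p. List genes that passed the filter only through puberty are named too. Tpm1, Krt8 and Cdh1 were named after their values were seen. The 12 lists held fast, slow and pan-fibre genes, myogenic regulators, cardiac isoforms, smooth muscle, luminal, white and brown adipocyte, macrophage, B cell and endothelial markers. Members and lists were chosen with earlier results of these data known. Alternatives covered scaling, floor, filter, variance model, the replicate number as a block and each array left out. The fits were tested on simulated data. Promoters and gene positions are RefSeq's (GRCm38.p6). Figures were drawn with matplotlib 3.10.9.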

Additional observations from a re-analysis of the deposited data

How the results depend on the processing

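No change of direction was found under any alternative run. Of the F tests and changes against puberty of single members, 747 kept their side of the threshold, 50 lost a call and 9 gained one. The lost calls were those of Tnnc1, of Tnnt1 and in involution, and that of Atp2a1 in pregnancy. With an array left out, the F test called 8 to 9 members, and 6 to 9 were called in pregnancy, 8 to 9 in lactation and 5 to 9 in involution against puberty. In lactation against pregnancy the count was 0 to 1, in involution against lactation 0 to 1 and in involution against pregnancy 0 to 0. The call of Myl1 in lactation against pregnancy was lost (0 members) with a floor of 50, with no filter and with no trend, and that in involution against lactation (0 members) with a floor of 50 and with no filter. With probe sets without a suffix 5 members were called in involution against puberty. The causes were not tested.

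The puberty minus others difference of the pairs depended on the floor, and the p-values beside it test all 4 stages. With no floor it was 0.62 for troponin C (exact p = 0.144), 2.88 for troponin I (exact p = 0.0302) and 3.74 for troponin T (exact p = 0.233). An added constant of 16 in place of the floor gave 1.38 for troponin I (exact p = 0.0421), and the mean of all probe sets gave 0.66 for troponin C (exact p = 0.398). With an array left out the differences were 2.84 to 3.38, 0.89 to 1.65 and 2.28 to 2.89 for troponin C, I and T.

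Arrays with the same replicate number did not deviate together (r = −0.15 to 0.05 over 12 pairs). Where both stages had 2 arrays, the values for replicates 1 and 2 are equal by construction, so not all pairs are separate. Whether such arrays share anything besides a number cannot be told from this. With the replicate number as a block, the F test called 8 members, and 8, 9 and 8 were called in pregnancy, lactation and involution against puberty, with 1, 0 and 1 in lactation against pregnancy, involution against pregnancy and involution against lactation. Over all probe sets the calls ranged over the alternatives between 288 and 1219 in pregnancy against puberty (1118 as reported), 245 and 825 in involution against puberty (732), 166 and 750 in involution against pregnancy (697), and 2573 and 4257 in lactation against pregnancy (4035). Tnnc1 was not tested with a filter of 100. With 2 or 3 arrays per stage, and values under 20 unordered, the changes of genes near the floor are measured only as bounds.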

Other observations

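Genes that belong to striated muscle by name did not all follow the contractile isoforms. In lactation against puberty 26.1% of all probe sets were called higher and 21.8% lower. Of 11 myogenic regulators and developmental isoforms 2 were higher and 3 lower, and of 4 cardiac isoforms 2 were higher and 0 lower. The genes given next are among those called higher, besides Tnnt2. Myod1, a master regulator of the muscle lineage, gave 111.1 and 180.8 in lactation, against 75.3, 82.5 and 89.6 at puberty, a log2 change of 0.79 (limma, adjusted p = 0.0253). Tnni3, the cardiac troponin I, gave 74.6 and 66.4 in lactation, against 32.0, 38.4 and 42.5 at puberty, a log2 change of 0.91 (adjusted p = 0.00845). Nppa, the atrial natriuretic peptide, gave 238.4 and 199.3 in lactation, against 44.2, 54.7 and 112.7 at puberty, a log2 change of 1.75 (adjusted p = 0.00963). Tnnt2, the cardiac troponin T, reached 23.0 at most on any array.

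Ucp1, the uncoupling protein of brown fat, gave 643.4, 106.1 and 33.1 at puberty, an order unlike that of the 10 genes of the set. Its F test did not pass (limma, adjusted p = 0.105). The other brown adipocyte genes tested were Cidea, with 550.5, 180.1 and 225.4, and Dio2, with 99.7, 22.9 and 29.4. Both were highest on replicate 1, as Ucp1 was, but lowest on replicate 2, as the 10 genes were. Krt8, a keratin of luminal epithelium, gave 938.4, 673.3 and 475.6 at puberty, lowest on the array where the 10 genes of the set were highest. Cdh1, of the same list, went the other way with 90.0, 88.5 and 128.7, and every other luminal gene listed was lowest on that array. Krt8 and Cdh1 were named after their values were seen.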
